A study of Oryza sativa with 9 samples.

Results

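In chilled rice shoots, 12 of the 55801 loci in the count table had far higher mean levels in both mutant groups of the study than in wild type. They were picked by level. The mean of each mutant group had to reach 10 CPM (counts scaled to a column total of 1e+06) and 16 times the wild-type (WT) mean plus 0.1 CPM. The values that chose the loci are those of both comparisons with WT, so their levels against WT are given as a description with no test. Reads were counted per locus in 9 RNA-seq libraries, 3 for each genotype, made from seedling shoots with 4 leaves held at 4 °C for 2 d. All plants carry the ZH11 background, and the groups are WT, an ossro1c knockout and an osdreb2b knockout; the labels name no allele or line and do not say whether replicates are separate plants or pools. Every plant was chilled, so the values compare genotypes in the cold and say nothing about the response to cold. Library totals ran from 58398026 to 69336224 counts.

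The study concerns OsSRO1c, a plant protein that carries a PARP-like domain, and OsDREB2B, a transcription factor of the AP2/ERF family. DREB factors bind a short dehydration-responsive element in promoters, and the DREB1 branch, also called CBF, is known in rice and Arabidopsis for its rapid induction by cold and for raising freezing or chilling tolerance when overproduced. One of the 12 loci belongs to that branch. The other 11 have no gene name in the tables used here, so they are described by locus identifier alone, and no sequence is shown.

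The targeted genes did not follow both labels. OsSRO1c (LOC_Os03g12820, a pairing from knowledge of the rice genome that the reference table does not hold) stood at 1841 ± 14.9 CPM in WT (SD, n = 3), 465 ± 31.8 CPM in ossro1c-labelled libraries and 132 ± 4.03 CPM in osdreb2b-labelled libraries. OsDREB2B (LOC_Os05g27930) stood at 152 ± 3.11, 77.0 ± 9.51 and 308 ± 8.88 CPM in the same order. Each gene was thus lowest in the libraries labelled for the other mutant, and the osdreb2b label goes with more OsDREB2B transcript than WT. Whether labels or columns were exchanged, or the alleles still make transcript, was not tested. Each direction below belongs to the libraries carrying a label, and an exchange would turn every difference between the mutants. Of 9 fixed leaf genes, the 5 with a checked name were all detected, with a summed level of 1832 to 1924 CPM in WT, 3682 to 3767 CPM in ossro1c-labelled libraries and 9778 to 10797 CPM in osdreb2b-labelled libraries. RCA (Rubisco activase) held most of the first 2 sums, with means of 1387 and 3498.5 CPM. The rise in ossro1c-labelled libraries was not shared by the list. CAB1R, PORB and PORA had means of 294, 87.6 and 20.2 CPM in WT but 66.0, 34.0 and 16.4 CPM in ossro1c-labelled libraries. CAB2R stood at 93.3 and 117 CPM. The 3 root genes summed to 2.95 to 4.38, 20.03 to 23.5 and 10.8 to 14.3 CPM, and 1 of them, Lsi2, had 0 counts in every library. These sums mostly followed Lsi1, with means of 2.18, 19.6 and 10.1 CPM, while OsNRAMP5 had means of 1.35, 1.86 and 2.24 CPM. Of 4 fixed endosperm genes, the 3 with a checked name summed to 2.49 to 4.26, 8.10 to 9.37 and 6.04 to 6.50 CPM, and none of these 3 was at 0 throughout. Among them GluA3 had 0 counts in WT and at most 0.187 CPM in any library. Glb1, whose name did not pass the check, had 0 counts in every library and is not in the sums. GluA2 held most of these sums, with means of 2.86, 8.45 and 4.58 CPM, while Wx had means of 0.384, 0.207 and 1.64 CPM. CDKB2;1, the only marker of dividing cells, was at 5.999 to 7.38, 7.41 to 10.04 and 24.2 to 28.5 CPM. These marker levels differ between the genotypes as well, and their part in the values below was not tested. In such bulk samples a change in the number of cells of a type and a change in RNA per cell cannot be told apart.

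**Figure D1:**
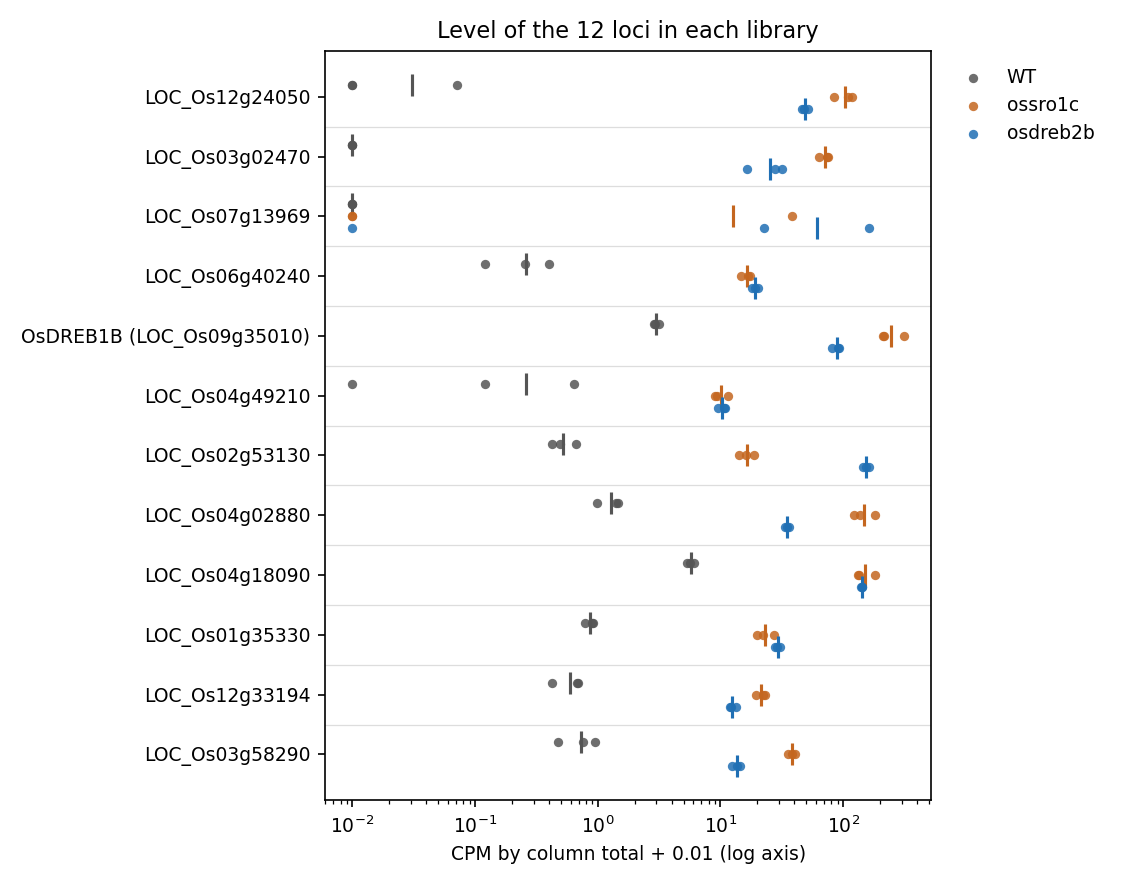
Level of each of the 12 loci in each of the 9 libraries, as CPM by column total plus 0.01 on a log axis; points are libraries, vertical ticks are group means, and colours are genotypes. For 11 loci all 6 mutant libraries lie to the right of all 3 WT libraries, while LOC_Os07g13969 has mutant libraries at 0.

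The 12 loci are 16% of the 75 loci that met the rule in ossro1c-labelled libraries and 23.1% of the 52 that met it in osdreb2b-labelled libraries; both comparisons share the WT libraries. Among the 9918 loci with at least 10 CPM in both mutant means, 0.121% were members. The smaller of the 2 ratios to WT (with 0.1 CPM added to the WT mean) ran from 16.5 to 403. In 11 of the 12, every mutant library exceeded every WT library, which held for 27.6% of the 26112 genes tested; the rule used this contrast, so nothing is read from the count. The exception was LOC_Os07g13969.

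**Figure D2:**
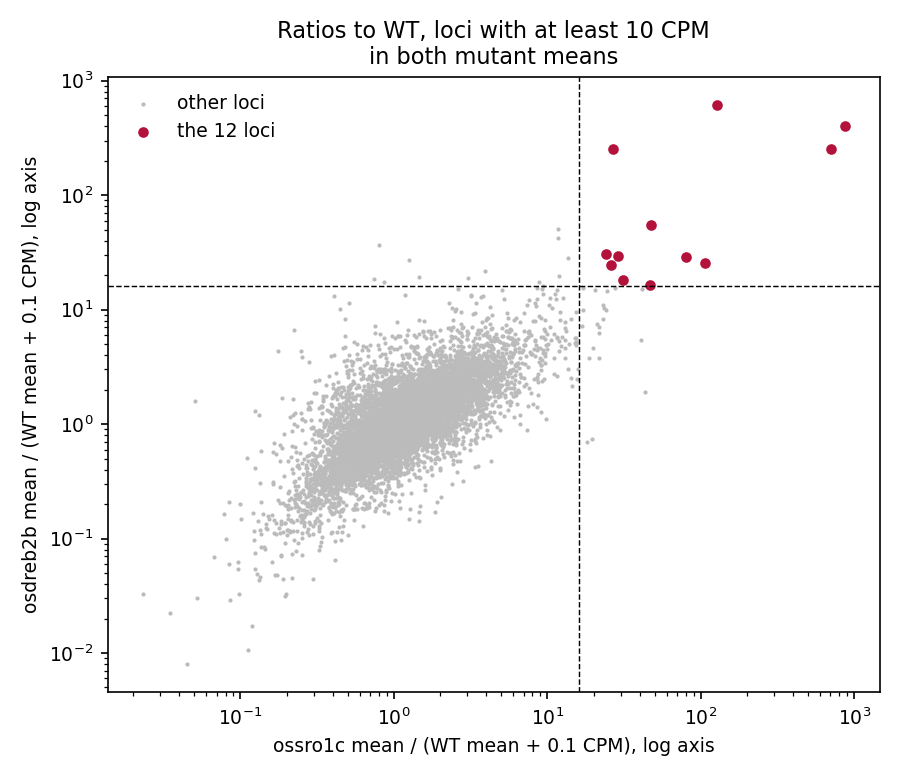
Mean of each mutant group divided by the WT mean plus 0.1 CPM, for the 9918 loci with at least 10 CPM in both mutant means, on log axes; dashed lines mark the ratio of 16 and red points are the 12 loci. The members fill the upper right corner, with LOC_Os12g24050 farthest along the ossro1c axis at 866.

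OsDREB1B (LOC_Os09g35010, chromosome 9), a DREB1/CBF factor, was at 2.84, 3.13 and 2.93 CPM in WT replicates 1 to 3. It was at 211, 214 and 313 CPM in ossro1c-labelled libraries and at 90.8, 81.5 and 93.3 CPM in osdreb2b-labelled libraries. The 3 groups did not overlap, and the ossro1c-labelled libraries were highest. The means were 82.8 times and 29.8 times that of WT. Between the mutants, a comparison that the rule did not use, OsDREB1B was lower in osdreb2b-labelled libraries (log2 fold change -1.30, SE 0.14, adjusted p = 3.8e-06, by edgeR's quasi-likelihood test). This test ran on TMM-scaled counts (a scaling by trimmed mean of the log ratios) over all genes. The TMM factors were 0.894 to 0.903 in WT, 1.09 to 1.14 in ossro1c-labelled libraries and 0.985 to 0.998 in osdreb2b-labelled libraries. On that scale the fold sizes of OsDREB1B against WT were 66.5 and 27.0, below the ratios of CPM by column total. The ratios of CPM and the overlaps between groups given here keep column totals and do not carry these factors.

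Apart from LOC_Os07g13969, described below, a pair of loci had next to no counts in WT. LOC_Os03g02470 (chromosome 3) had 0 counts in all 3 WT libraries, but 73.3, 63.9 and 75.7 CPM in ossro1c-labelled libraries and 31.6, 16.5 and 27.7 CPM in those labelled osdreb2b. Set against a floor of 3 counts over the WT group together, its level was at least 4553-fold higher in ossro1c-labelled libraries and at least 1619.6-fold higher in osdreb2b-labelled libraries. This floor allows for counting error in WT at 95% confidence and not for the spread between libraries. LOC_Os12g24050 (chromosome 12) had 0, 0 and 4 counts in WT. It reached 119, 110.5 and 84.03 CPM in ossro1c-labelled libraries and 51.5, 45.9 and 48.4 CPM in osdreb2b-labelled libraries. Its ratio of summed counts to WT was 4982 (95% exact binomial interval 1946 to 18288) and 2341 (914 to 8592), intervals that cover counting error only. Both loci were counted in all 6 mutant libraries, and for both the ossro1c-labelled libraries were the higher, without overlap.

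For a further 3 loci the ossro1c-labelled libraries were also the higher. LOC_Os04g02880 (chromosome 4) was at 0.974, 1.40 and 1.45 CPM in WT, at 124, 137 and 181 CPM in ossro1c-labelled libraries and at 33.8, 36.0 and 35.2 CPM in osdreb2b-labelled libraries. LOC_Os03g58290 (chromosome 3) was at 0.943, 0.747 and 0.463 CPM in WT, at 38.5, 40.4 and 35.2 CPM in ossro1c-labelled libraries and at 12.4, 14.5 and 13.7 CPM in osdreb2b-labelled libraries. These 2 loci showed the same order of groups as OsDREB1B, with no overlap between any of the 3 groups. The same held for LOC_Os03g02470 and LOC_Os12g24050 above and for LOC_Os12g33194. LOC_Os12g33194 (chromosome 12), the member with the next smallest ratio, was at 0.665, 0.683 and 0.417 CPM in WT, at 23.0, 22.1 and 19.4 CPM in ossro1c-labelled libraries and at 13.4, 12.1 and 11.99 CPM in osdreb2b-labelled libraries.

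LOC_Os02g53130 (chromosome 2) went the other way between the mutants, and by the widest margin of the 12 among those that passed the test. It was at 0.649, 0.413 and 0.479 CPM in WT and at 14.1, 18.8 and 16.3 CPM in ossro1c-labelled libraries. In libraries labelled osdreb2b it reached 152, 146 and 164 CPM. Its means were 31.9 times and 299.8 times that of WT, so the level in osdreb2b-labelled libraries was 9.40 times that in ossro1c-labelled libraries. LOC_Os01g35330 (chromosome 1) leaned the same way, with 0.897, 0.778 and 0.895 CPM in WT, 19.9, 22.1 and 27.4 CPM in ossro1c-labelled libraries and 27.98, 29.1 and 30.7 CPM in osdreb2b-labelled libraries. For that locus the mutant groups did not overlap, with ossro1c replicate 3 just below the lowest osdreb2b library.

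Another 3 loci, counted in every mutant library, did not pass the test between the mutants. LOC_Os04g18090 (chromosome 4) was at 6.08, 5.67 and 5.34 CPM in WT, at 133, 136 and 183 CPM in ossro1c-labelled libraries and 143, 139 and 142 CPM in osdreb2b-labelled libraries. LOC_Os06g40240 (chromosome 6) was at 0.387, 0.111 and 0.247 CPM in WT, 17.5, 16.9 and 14.7 CPM in ossro1c-labelled libraries and 19.1, 20.1 and 18.1 CPM in osdreb2b-labelled libraries. LOC_Os04g49210 (chromosome 4) was at 0.634, 0.111 and 0 CPM in WT, 9.06, 11.6 and 9.40 CPM in ossro1c-labelled libraries and 10.7, 9.61 and 10.8 CPM in osdreb2b-labelled libraries. The mutant groups overlapped for the first and the last of these, and for LOC_Os06g40240 all osdreb2b libraries lay above all ossro1c libraries. WT counts of LOC_Os04g49210 were 41, 7 and 0, so its ratio rests largely on WT replicate 1.

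Between the mutants 6 of the 12 loci were lower and 2 higher in osdreb2b-labelled libraries, and 4 did not pass at an adjusted p of 0.05. Over all 26112 genes tested, 23.6% were lower and 22.9% higher, and among the 9918 loci with at least 10 CPM in both mutant means 28.4% were lower and 33.7% higher. The median log2 fold change of the 12 was -0.26, against -0.02 for all genes. Both mutant means had to be high for a locus to be chosen, which limits how far the mutants could differ. When TMM was replaced by raw totals, the median of all genes moved to -0.20, and the same counts of 6 and 2 were called. Without overlap between the groups, 3 of the 12 lay above in osdreb2b-labelled libraries and 6 below, against 20.6% and 35.1% of all genes tested. The 3 libraries against 3 allow no exact permutation p below 0.1 for a single locus. The log2 fold changes that passed were -1.90 for LOC_Os04g02880 (SE 0.15, adjusted p = 1.3e-07), -1.31 for LOC_Os03g58290 (SE 0.15, adjusted p = 7e-06), -1.31 for LOC_Os03g02470 (SE 0.21, adjusted p = 0.00046), -0.92 for LOC_Os12g24050 (SE 0.15, adjusted p = 0.00019) and -0.60 for LOC_Os12g33194 (SE 0.14, adjusted p = 0.0028), beside that of OsDREB1B. On the other side stood 3.41 for LOC_Os02g53130 (SE 0.13, adjusted p = 1.5e-10) and 0.51 for LOC_Os01g35330 (SE 0.13, adjusted p = 0.0049).

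**Figure D3:**
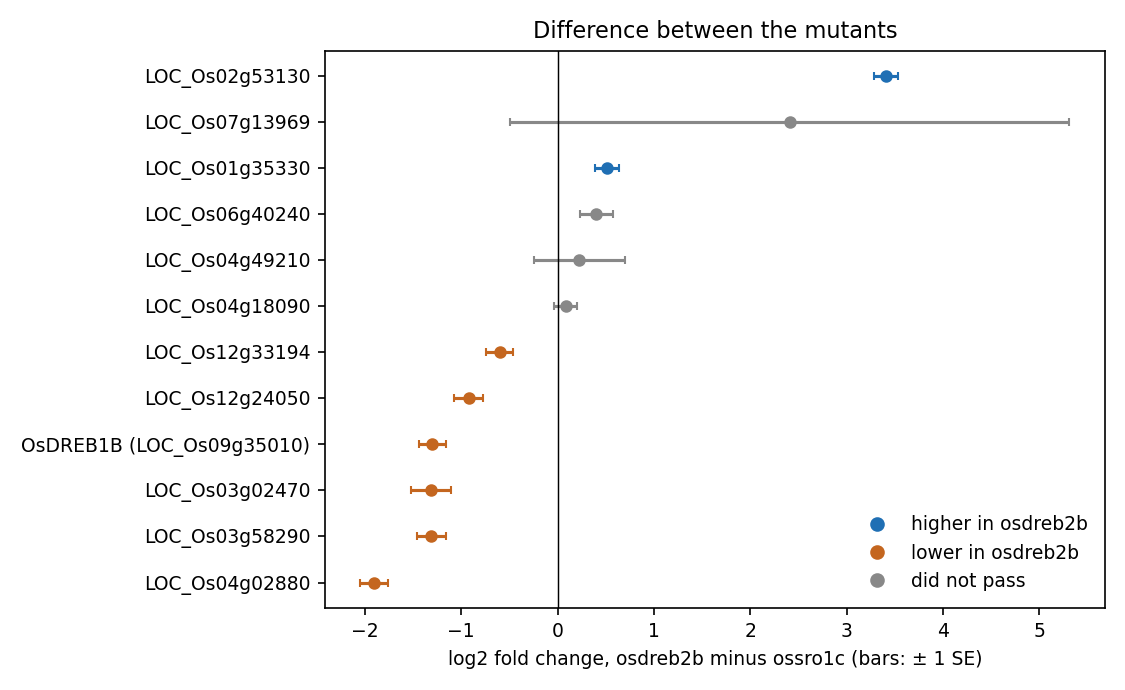
Log2 fold change of each of the 12 loci between libraries labelled osdreb2b and those labelled ossro1c, with bars of 1 SE from edgeR; blue points were higher and orange points lower at an adjusted p of 0.05, and grey points did not pass. Differences ran from -1.90 for LOC_Os04g02880 to 3.41 for LOC_Os02g53130, and the bar of LOC_Os07g13969 spans zero.

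Of the 4 that did not pass, LOC_Os06g40240 differed by 0.40 (SE 0.17, adjusted p = 0.070, edgeR); it did pass with DESeq2 (adjusted p = 0.017), on the 6 mutant libraries alone (0.023) and without WT replicate 1 (0.033) or WT replicate 2 (0.022). LOC_Os04g18090 differed by 0.08 (SE 0.12, adjusted p = 0.60), and without ossro1c replicate 3 by 0.27 with an adjusted p of 0.00075; under raw totals and without ossro1c replicate 1 its sign turned (-0.09 and -0.01). LOC_Os04g49210 differed by 0.23 (SE 0.47, adjusted p = 0.73). These wide or small values do not show that the mutants are alike at these loci. In ossro1c replicate 3, 6 of the 12 loci had their highest level of that group, against 43.7% of the 9918 loci.

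LOC_Os07g13969 (chromosome 7) met the rule through 3 libraries. It had 0 counts in all 3 WT libraries, in ossro1c replicates 1 and 2 and in osdreb2b replicate 3, and it had 2634 counts in ossro1c replicate 3, 1531 in osdreb2b replicate 1 and 9904 in osdreb2b replicate 2. In CPM the positive libraries stood at 38.0, 22.8 and 162. The next locus by identifier, LOC_Os07g13980, held 12763, 2964 and 15314 counts in osdreb2b replicates 1 to 3, and was thus lowest in the osdreb2b library in which LOC_Os07g13969 was highest. Summed, the pair came to 213, 210.4 and 227 CPM in those 3 libraries, a coefficient of variation of 4.22% against 142% for LOC_Os07g13969 alone. In ossro1c-labelled libraries LOC_Os07g13980 held 26882, 28668 and 36072 counts and was highest in replicate 3, the library there with counts of LOC_Os07g13969. In that group the sum varied more (14.5%) than LOC_Os07g13980 alone (10.5%). The sum was 247 ± 12.6 CPM in WT, 480 ± 69.9 CPM in ossro1c-labelled libraries and 217 ± 9.15 CPM in osdreb2b-labelled libraries (SD, n = 3), and LOC_Os07g13969 took from 0 to 77.0% of it. Whether these loci overlap or share reads was not tested, as no annotation of the files' build was used. The locus therefore goes against the description "gained in both mutants", and its difference between the mutants (log2 2.41, SE 2.90, adjusted p = 0.56, edgeR) did not pass.

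**Figure D4:**
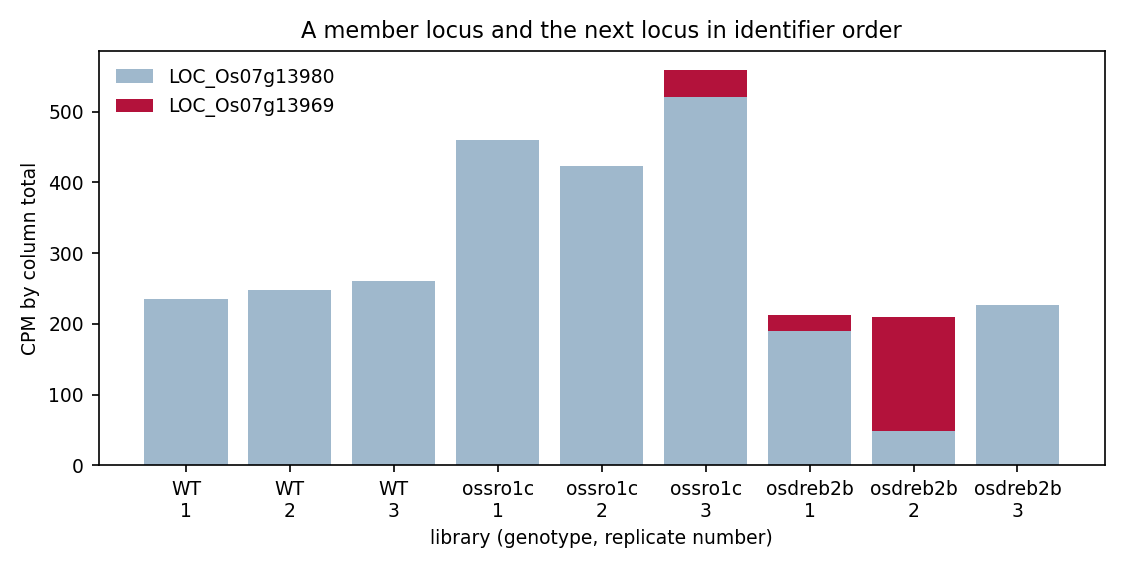
CPM by column total of LOC_Os07g13969 (red) stacked on that of the next locus by identifier, LOC_Os07g13980 (blue), in each of the 9 libraries. The red part appears in 3 libraries and is largest in osdreb2b replicate 2, where the whole bar is as high as in the other osdreb2b libraries.

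Lower counts beside a member were also seen next to LOC_Os12g24050. The nearest following locus with any counts, LOC_Os12g24080, had 29796, 30518 and 30875 counts in WT, 13921, 15908 and 13079 in ossro1c-labelled libraries and 12377, 12064 and 11642 in osdreb2b-labelled libraries. Here the sum of the pair was not level: it was 474 ± 12.3 CPM in WT, 325 ± 45.7 CPM in ossro1c-labelled libraries and 233 ± 11.2 CPM in osdreb2b-labelled libraries. The locus just before LOC_Os12g24050, LOC_Os12g24040, went the other way at a low level. Its means were 0.391 CPM in WT, 1.02 CPM in ossro1c-labelled libraries and 1.67 CPM in osdreb2b-labelled libraries. LOC_Os04g02880 lay between 2 loci that were lower in both mutants, LOC_Os04g02870 (log2 -0.99 and -1.33) and LOC_Os04g02890 (-1.11 and -1.05; adjusted p from 2.4e-06 to 0.00011, edgeR). LOC_Os03g58290 stood beside LOC_Os03g58300, which rose by 1.94 in ossro1c-labelled libraries (SE 0.33, adjusted p = 0.00018) and by 3.19 in osdreb2b-labelled libraries (SE 0.34, adjusted p = 1.9e-06), in the reverse order of the mutants.

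By their identifiers the 12 loci lie on 8 chromosomes, 3 of them on chromosome 4 and 2 each on chromosomes 3 and 12, and no member is next to another. Their 24 flanking loci were looked at after the members' values had been seen. Of these 16 were tested and 6 had 0 counts in all libraries. In ossro1c-labelled libraries 5 of the 16 were higher and 4 lower (of all genes, 29.4% and 31.4%). In osdreb2b-labelled libraries 5 were higher and 4 lower (of all genes, 29.9% and 29.6%). Higher in both mutants were 3 of the 16 (18.8%), against 19.7% of all genes, and lower in both were 3 (18.8%), against 21.2%, shares near the background. Both loci that flank OsDREB1B were among those higher in both mutants. LOC_Os01g35330 had 0 counts at both flanking loci in every library.

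OsDREB1B is the first of 3 neighbouring DREB1 genes, followed in locus order and in the reference table by OsDREB1H (LOC_Os09g35020) and OsDREB1A (LOC_Os09g35030), with 0 genes between them. OsDREB1H was at 0.436 ± 0.106 CPM in WT, 4.17 ± 1.26 CPM in ossro1c-labelled libraries and 15.2 ± 0.456 CPM in osdreb2b-labelled libraries (SD, n = 3), and OsDREB1A at 13.4 ± 0.397, 59.4 ± 12.4 and 121 ± 6.03 CPM. Both were thus highest in the mutant in which OsDREB1B was the lower: between the mutants OsDREB1H was higher in osdreb2b-labelled libraries by 2.04 (SE 0.22, adjusted p = 3.9e-06) and OsDREB1A by 1.20 (SE 0.13, adjusted p = 3.6e-06, edgeR). Apart from OsDREB1B, 7 other DREB1 genes with a checked name were tested. All 7 rose in ossro1c-labelled libraries, where 29.4% of all genes were higher, and 5 rose in osdreb2b-labelled libraries, where 29.9% were. The median log2 fold changes of these 7 were 3.58 and 1.55, against -0.001 and 0.03 for all genes. Some were near the floor: OsDREB1I had 5, 0 and 2 counts in WT and 31, 48 and 19 in ossro1c-labelled libraries (SE 1.29, adjusted p = 0.034, edgeR). WT means of OsDREB1E and OsDREB1J were 0.083 and 0.192 CPM. OsDREB1C (LOC_Os06g03670) rose by 5.66 (SE 0.17) and 1.08 (SE 0.16), and OsDREB1G (LOC_Os02g45450) by 4.76 (SE 0.23) and 1.55 (SE 0.22). Neither came near the rule in osdreb2b-labelled libraries, with ratios to WT plus 0.1 CPM of 2.22 and 2.94. OsDREB1I and OsDREB1J did not pass there (adjusted p = 0.64 and 0.53), and OsDREB1F, with at most 0.591 CPM in any library, was not tested. Between the mutants 5 of the 8 were lower in osdreb2b-labelled libraries, OsDREB1B among them, and 2 higher. Of all genes tested, 23.6% were lower and 22.9% higher.

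**Figure D5:**
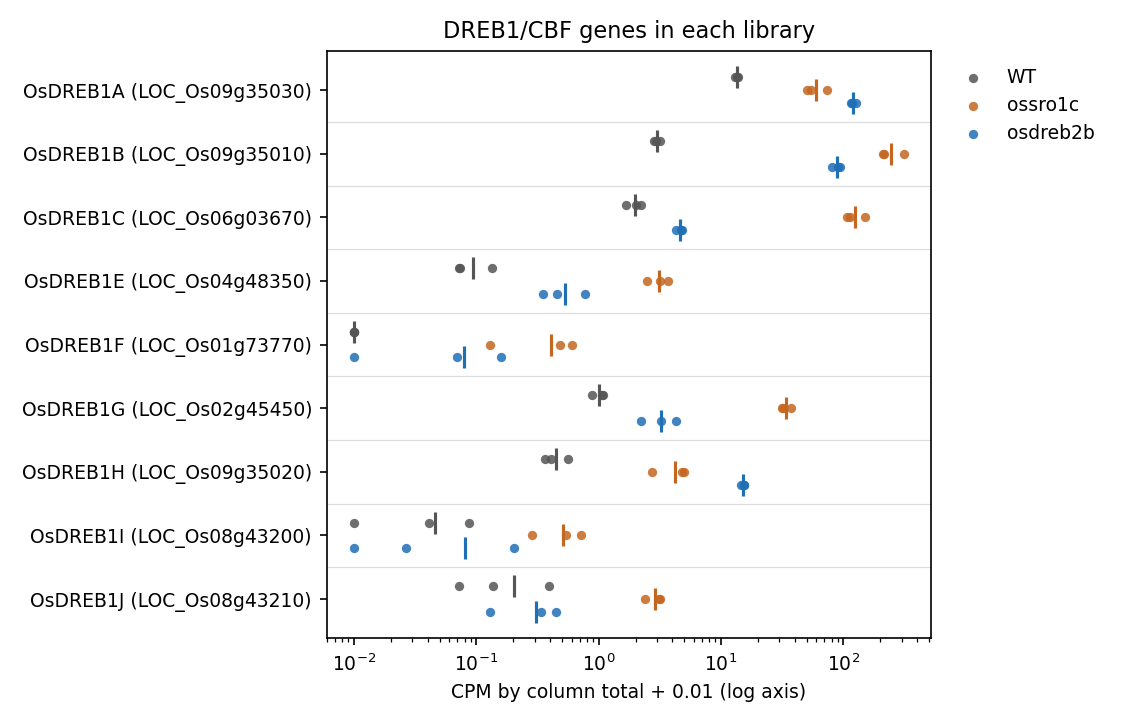
Level of the 9 DREB1/CBF genes with a checked name in each library, as CPM by column total plus 0.01 on a log axis; points are libraries, ticks are group means and colours are genotypes. OsDREB1B lies far to the right of WT in both mutants. OsDREB1C, OsDREB1E, OsDREB1G and OsDREB1J lie farther to the right in ossro1c-labelled libraries (means 63.0, 37.1, 33.7 and 15.1 times that of WT) than in osdreb2b-labelled libraries (2.34, 6.25, 3.23 and 1.54 times). OsDREB1H and OsDREB1A lie to the right of WT in both mutants, and farther in osdreb2b-labelled libraries (34.8 and 9.01 times) than in ossro1c-labelled libraries (9.55 and 4.42 times).

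The limit of 16 is a matter of degree. Just inside it were LOC_Os03g58290 (16.5), LOC_Os12g33194 (18.2) and LOC_Os01g35330 (24.2), and just outside were OsABA8ox1 (LOC_Os02g47470; 15.4), LOC_Os09g30454 (15.3) and LOC_Os06g15730 (15.1). OsABA8ox1 encodes a hydroxylase that breaks down abscisic acid, a hormone of water and cold stress. It was at 24.2, 23.1 and 24.6 CPM in WT, 637, 660.1 and 693 CPM in ossro1c-labelled libraries and 357, 374 and 383 CPM in osdreb2b-labelled libraries. Like 6 of the members it was lower in osdreb2b-labelled libraries than in ossro1c-labelled libraries (log2 -0.66, SE 0.07, adjusted p = 3.4e-06, edgeR). Of 7 fixed abscisic acid genes, 4 had a checked name: OsABA8ox1, OsABA8ox2, OsABA8ox3 and OsNCED3. In ossro1c-labelled libraries 3 of these 4 were higher and 1, OsABA8ox2, lower than in WT (of all genes, 29.4% and 31.4%). In osdreb2b-labelled libraries all 4 were higher (of all genes, 29.9% were higher and 29.6% lower). The rise was not confined to the OsABA8ox genes: OsNCED3 differed from WT by 1.11 in ossro1c-labelled and 0.72 in osdreb2b-labelled libraries on the log2 scale. The medians of the 4 genes were 0.80 and 0.77 on the log2 scale, and none was a member.

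Spread between replicates, a measure that the rule did not set, was given for each group as a coefficient of variation. The median of the 12 loci was 15.6% in ossro1c-labelled libraries and 6.02% in osdreb2b-labelled libraries, against 10.7% and 5.58% for the 9918 loci with at least 10 CPM in both mutant means. In WT, where 10 of the 12 had any counts, it was 24.5%, against 4.27% for the 9918 loci, most of which are not low in WT as the members are by choice.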

How the data were processed

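The authors deposited raw counts per locus (whole numbers, not normalized), with LOC_Os identifiers. The submitters' processing notes list HISAT2 2.2.1, StringTie 2.1.4, fastp 0.23.4 and DESeq2, with roles not stated; the sources used here give no build, annotation or strand setting. Groups came from the titles, and 0 columns were left unused. CPM used column totals, as the rule requires. Tests used edgeR 4.0.16 in R 4.3.3 (filterByExpr, TMM, robust quasi-likelihood, all 9 libraries, 26112 genes, Benjamini-Hochberg, threshold 0.05), tested first on simulated data; DESeq2 1.42.0 was an alternative. SE is the absolute log2 fold change over the root of the F statistic. P-values measure the spread between these libraries, which may be technical. Members, lists and tests were chosen with earlier results of these data known. All 12 members were to be named. All 12 passed the filter on low counts, largely through the mutant groups. Of 89 names on 14 fixed lists, 63 were checked, by chromosome and order, against a RefSeq gene table (ASM3414082v1), from which no coordinates were taken; 1 member was named. Lists not described held no member.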

Additional observations from a re-analysis of the deposited data

How the results depend on the processing

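The rule of 12 loci gave 50 at a ratio of 8, 4 at a ratio of 32 and 6 at a minimum of 20 CPM; the limits themselves set these counts. It gave 17 at a minimum of 5 CPM, 9 with 0.5 CPM added, 10 on TMM-scaled CPM, 8 when every mutant library was set against the highest WT library, and 11 to 14 with 1 library left out. LOC_Os12g24050 and LOC_Os03g02470 met all 16 alternatives, while LOC_Os03g58290 met 9, LOC_Os04g49210 met 10, LOC_Os12g33194 met 12 and LOC_Os07g13969 met 13. Between the mutants, the 8 loci that passed did so in the same direction under all 17 alternatives, DESeq2 included. The difference at LOC_Os04g18090, which did not pass, was -0.092 under raw totals and ranged from -0.0086 to 0.27 when single libraries were omitted, and that of LOC_Os07g13969 from -0.00093 to 14.94 in the same omissions; the cause was not tested. The DREB1/CBF counts were recomputed as an addition after the data were seen, here with OsDREB1B included, which the rule had chosen. They were 8 higher in ossro1c-labelled and 6 in osdreb2b-labelled libraries in the main setting. Under the alternatives they were 7 to 9 and 6 to 7. With the replicate block the counts were 6 lower and 2 higher, as without it. Same-numbered libraries did not deviate together (9 pairs, correlations -0.01 to 0.02), so the numbers give no pairing. Low WT counts limit the precision of the ratios.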

Other observations

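A further 5 loci had ratios of at least 16 in both mutants but a lower mutant mean of 5 to 10 CPM. LOC_Os02g53240 had 0 counts in WT, 9.38, 8.42 and 9.61 CPM in ossro1c-labelled libraries, and 25.7, 24.8 and 28.3 CPM in osdreb2b-labelled libraries. LOC_Os11g17954, also at 0 in WT, was at 12.5, 14.9 and 10.3 CPM and at 7.69, 7.15 and 6.99 CPM. LOC_Os07g10850 was at 6.58, 5.34 and 4.08 CPM in ossro1c-labelled libraries and 26.5, 29.4 and 28.3 CPM in osdreb2b-labelled libraries. Between the mutants 4 of these 5 were higher in osdreb2b-labelled libraries, by 0.60 to 2.58 on the log2 scale (adjusted p from 4e-08 to 0.0067, edgeR; of all genes tested, 22.9% were higher and 23.6% lower), and LOC_Os11g17954 was lower, by -0.60 (SE 0.17, adjusted p = 0.011). They were looked at after the members' values had been seen.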
